A study of Rattus norvegicus with 39 samples.

Results

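The cerebral cortex of 28-month-old male BN rats (substrain BN/SsNOlaHSD) was compared between mirror-image diet histories. In the AL>CR group, rats ate ad libitum (AL) until 12 months of age and were then held on calorie restriction (CR) until they were killed. In the CR>AL group the order was reversed, so that restriction from 2 to 12 months of age was followed by 16 months of free feeding. Every rat ate the same unsupplemented CRM chow ad libitum until 2 months of age and lived singly afterwards, and CR meant 55% of the control food intake, supplied once a day. The members were the 3 libraries labelled for each history, 6 of 39 in the series, and each library held the cortex RNA of 2 rats, so a value is the mean of a pair of animals and the spread between single rats was not measured. Ribosomal RNA was depleted before sequencing and reads were counted per Ensembl gene. The other 33 libraries covered 11 further groups of age and diet, 3 pools each, some with α-lipoic acid (LA), an antioxidant, in the chow at 1.5 g/kg. The question the comparison addressed was what the order of AL and CR across a lifetime left behind in the transcriptome at one age. A difference between the groups combines the present diet and the past diet, which the 2 groups alone cannot tell apart.

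Calorie restriction lowers body temperature and the supply of glucose, and tissues answer with shifts in mitochondrial respiration, protein synthesis and stress responses. Cold-inducible RNA-binding proteins such as Rbm3 and Cirbp are made when temperature falls slightly, and Rbm3 is known in brain for promoting translation and maintaining synapses. The cerebral cortex consists mainly of glutamatergic projection neurons, GABAergic interneurons, astrocytes and oligodendrocytes, and in bulk RNA a lower number of cells of a type and less RNA per cell cannot be told apart.

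The 6 libraries held 3241339 to 4876839 reads on genes, which set the worth of 1 CPM, the level scale used here (counts scaled to library size), at 3.24 to 4.88 reads, and 38.5% to 41.0% of reads were not aligned. That share differed by less than the spread between pools, at 40.2% ± 1.40 in AL>CR and 40.4% ± 0.314 in CR>AL (SD, n = 3 pools each, two-sided exact permutation test, p = 1). Most aligned reads lay on no annotated gene, 81.4% ± 0.685 in AL>CR against 82.5% ± 0.470 in CR>AL (SD, n = 3 each, two-sided exact permutation p = 0.1, the smallest 3 against 3 allow). The ribosomal RNA gene Rn28s, left after depletion, took 2.59% to 3.03% of gene reads in AL>CR and 1.597% to 2.29% in CR>AL, without overlap. Cortical markers were present in all 6 pools, with the upper-layer gene Lamp5 at 171 to 219.7 CPM and the projection-neuron gene Neurod6 at 44.1 to 68.5 CPM. The cerebellar granule cell gene Gabra6 was at 9.87 CPM in pool 19 of AL>CR and at 0 to 2.57 CPM in the other 5. Pools of a group resembled each other about as much as pools of different groups, with Pearson correlations of log2 CPM across genes of 0.971 to 0.978 within groups and 0.968 to 0.977 between them.

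Of 17230 genes tested, 28 (0.163%) passed an adjusted p under 0.05 in edgeR, with the quasi-likelihood test and Benjamini-Hochberg adjustment over all genes. With n = 3 pools a group, these p-values measure the spread between pools. Expression was higher in AL>CR for 19 of them (0.11% of genes tested) and lower for 9 (0.0522%). In 25 of the 28 the pools of the groups did not overlap, against 11.9% of all genes tested, and in these the size of the log2 fold change lay between 0.47 and 1.68 with a median of 0.69. At an unadjusted p under 0.05 there were 1170 genes (6.79%), 626 higher (3.63%) and 544 lower (3.16%), and the median log2 fold change over all genes was 0.00035. The number called depended on which libraries set the spread: 5 genes passed when the 28m AL and CR pools joined the fit, and 2 when all 13 groups did. It also fell to 13 without pool 20 of AL>CR and to 15 without pool 25 of CR>AL, and rose to 43 without pool 21 of AL>CR. Of the 28 genes 13 had a name, 9 higher and 4 lower. Names were available for 1668 of the genes tested, 0.779% of which passed, against 0.0964% of those without a name. They came from supplementary lists that favour genes responding to age or diet, so named genes are not a random sample.

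**Figure D1:**
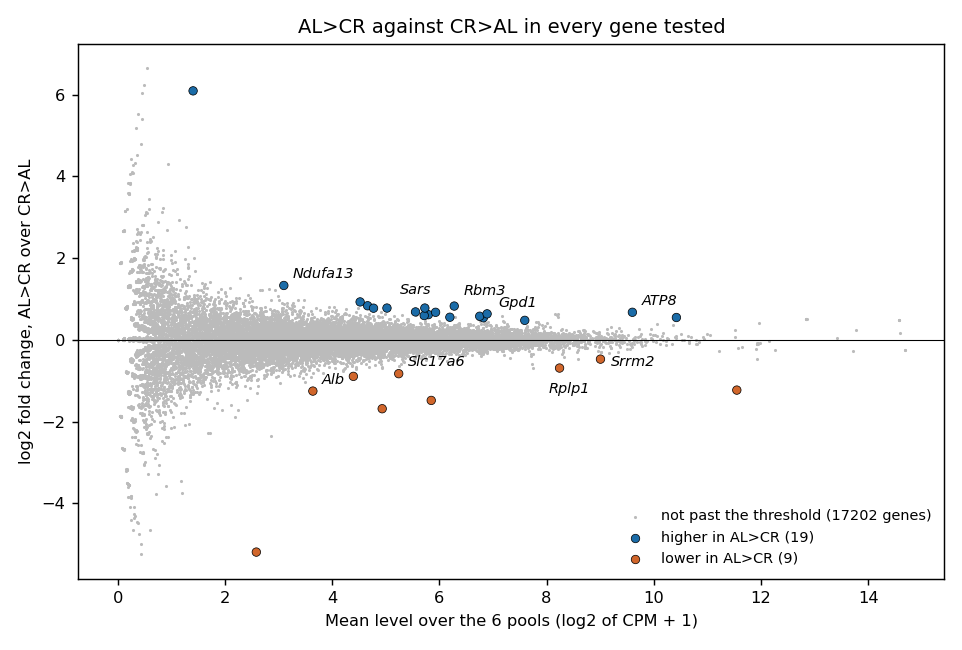
Log2 fold change of AL>CR over CR>AL (vertical axis) against the mean level of each gene over the 6 pools (horizontal axis, log2 of CPM + 1), one point per gene tested. Blue points mark the 19 genes higher in AL>CR and orange points the 9 lower, and most of them lie within 1.7 of 0 at middle levels, while the grey cloud of the other 17202 genes is centred on 0.

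Rbm3, the cold-inducible RNA-binding protein, was the named gene with the smallest adjusted p. Its level was 106, 101 and 101 CPM in the AL>CR pools and 50.6, 68.3 and 53.9 CPM in the CR>AL pools. Every AL>CR pool lay above every CR>AL pool, and Rbm3 was 1.78-fold higher in AL>CR (log2 fold change 0.83, SE 0.12, edgeR adjusted p = 0.000314). The call held without each of the 6 pools in turn, and its adjusted p rose to 0.0835 with all 13 groups in one fit. Cirbp, the other classical cold-inducible RNA-binding protein, was looked up after the values were seen. It measured 36.4, 38.8 and 39.7 CPM in AL>CR and 25.8, 22.4 and 25.7 CPM in CR>AL, again without overlap, but the difference of 0.64 (SE 0.15) missed the threshold with an edgeR adjusted p of 0.0768.

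Rbm3 was also measured in the 11 other groups. At 12 months it was at 44 ± 1.12 CPM in AL and 98.4 ± 14.6 CPM in CR (SD, n = 3 pools each), a log2 fold change of 1.15 with an edgeR adjusted p of 0.00113, where 372 genes passed in all (2.16%). At 28 months AL and CR for life lay at 96.1 ± 19.6 and 96.5 ± 5.3 CPM (SD, n = 3 each), a difference of 0.02 that did not pass (adjusted p = 0.973), while 711 genes did (4.13%). Without the 28m AL pools 7 and 9, which hold cerebellar transcripts, lifelong AL rests on pool 8 alone and that difference was 0.24. These 2 comparisons share no library with AL>CR or CR>AL. The 12-month groups also differed in library quality, with 30.4% to 36.1% of reads not aligned in AL and 41.1% to 43.2% in CR. Rn28s took 1.75% to 2.83% of gene reads in 12m AL and 0.344% to 0.479% in 12m CR. Pool 5 of 12m AL held only 494091 reads on genes. In order of their means at 28 months, CR>AL was lowest at 57.6 CPM, followed by AL+LA at 61.2, CR>AL+LA at 70.8, CR>CR+LA at 71.9, AL at 96.1, CR at 96.5, AL+LA>CR at 99.96 and AL>CR at 103. Neighbours in that order differed by less than the larger of their SDs except CR>CR+LA and AL, whose SDs were 10.7 and 19.6 CPM. The lowest 3 of the 8 were fed ad libitum at the end, while lifelong AL, the fourth such group, was not among them. Cirbp did not follow the same order, being at 33.1 ± 3.32 CPM in AL and 26.2 ± 1.54 CPM in CR at 12 months and at 29.2 ± 5.44 and 43.8 ± 3.16 CPM at 28 months (SD, n = 3 each).

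**Figure D2:**
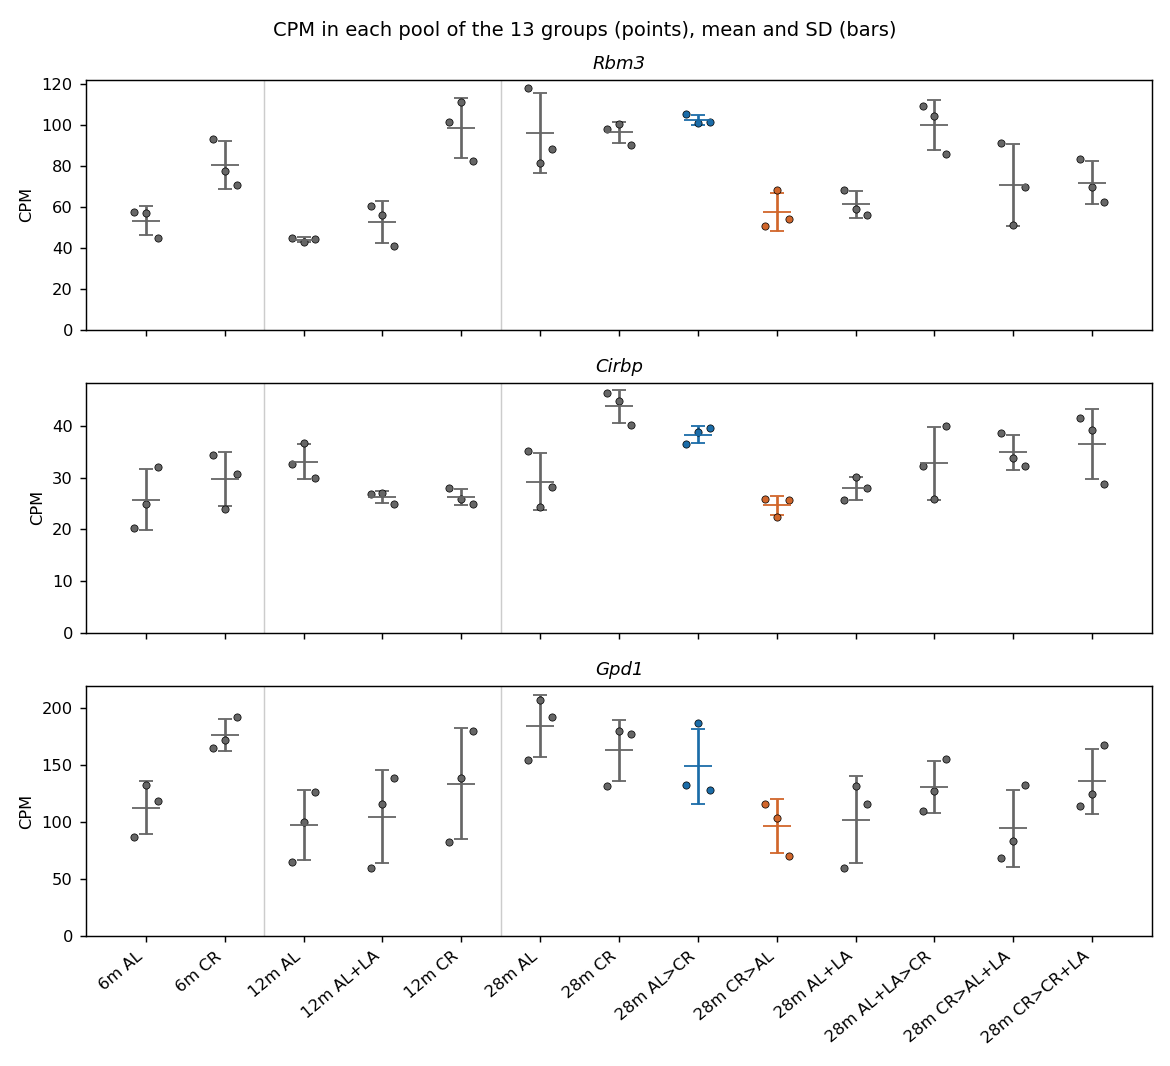
CPM (vertical axes, starting at 0) of Rbm3, Cirbp and Gpd1 in every pool of the 13 groups of age and diet (horizontal axis). Points are pools, the wide tick is the mean of 3 pools and the bars its SD. Blue marks AL>CR and orange CR>AL, and in each panel the 3 orange points lie below the 3 blue ones.

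The promoters of this pair are shown because they are the genes with the best known cold-inducible control. The 250 bases before each start were taken from RefSeq (GRCr8, a later build than the Rnor_5.0 of the counts), 5′ to 3′ on the coding strand, with the mild cold response element TCCCCGCC in capitals where it occurs on either strand.
Rbm3: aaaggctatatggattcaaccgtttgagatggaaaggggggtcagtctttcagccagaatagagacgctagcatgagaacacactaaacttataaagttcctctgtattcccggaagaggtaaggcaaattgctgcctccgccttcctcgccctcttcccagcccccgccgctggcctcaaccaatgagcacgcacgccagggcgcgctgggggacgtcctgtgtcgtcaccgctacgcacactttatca
Cirbp: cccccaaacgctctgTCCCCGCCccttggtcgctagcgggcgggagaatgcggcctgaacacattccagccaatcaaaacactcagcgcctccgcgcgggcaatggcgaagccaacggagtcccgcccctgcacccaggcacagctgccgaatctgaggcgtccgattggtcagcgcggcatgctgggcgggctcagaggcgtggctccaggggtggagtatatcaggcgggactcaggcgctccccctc
The Rbm3 window lies at chrX:17020655-17020904 on the plus strand and does not hold these letters. The Cirbp window lies at chr7:10189476-10189725 on the minus strand and holds them once, beginning 235 bases before the start. The element occurred in 4.22% of the 33469 promoter windows of the same length. The GC box GGGCGG, searched on both strands, occurred 4 times in the Cirbp window, with 1 of them overlapping the cold response element, and not in that of Rbm3, and 30.5% of all windows hold it. The E-box CACGTG occurred in neither, against 5.59% of all windows.

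Genes of oxidative phosphorylation and of the shuttles that feed it formed the next group. ATP8, a subunit of ATP synthase encoded in the mitochondrial genome, was at 1087, 832 and 1037 CPM in AL>CR and at 708, 602 and 545 CPM in CR>AL. The groups did not overlap, and ATP8 rose 1.6-fold in AL>CR (log2 fold change 0.68, SE 0.11, edgeR adjusted p = 0.00215). Its call held without each of the 6 pools in turn, but not in the fits with 4 diet groups or all 13 groups. ATP8 overlaps a second gene on the mitochondrial genome, so how reads were split between them is uncertain. Atp5c1, the nuclear-encoded gamma subunit of the same enzyme, measured 64.3, 76.7 and 87.3 CPM against 46.3, 47.2 and 49.3 CPM, a log2 fold change of 0.68 (SE 0.13, adjusted p = 0.0132). Ndufa13, an accessory subunit of complex I, was low throughout, at 12.4, 13.4 and 10.9 CPM (49, 61 and 34 reads) against 2.8, 6.09 and 5.39 CPM (9, 28 and 21 reads). Its difference was the largest among the named genes, 1.33 on the log2 scale (SE 0.29, adjusted p = 0.0409), and of the 13 named genes it rested on the fewest reads. Gpd1, the cytosolic glycerol-3-phosphate dehydrogenase that passes reducing equivalents from glycolysis to mitochondria, was at 132, 186 and 128 CPM in AL>CR and 116, 103 and 70.1 CPM in CR>AL. Its lowest AL>CR pool lay above its highest CR>AL pool by less than the SD of either group, and the fold change of 1.56 passed narrowly (log2 0.64, SE 0.14, adjusted p = 0.0482) and not with DESeq2 or with RLE size factors.

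The other matched genes of the pathway did not pass the test. Of 76 nuclear respiratory chain genes listed, 40 were matched to 41 tested identifiers, and 2 of these rose, none fell and 39 did not pass. Over all named genes 0.779% passed, and over all genes 0.163%. The list's median log2 fold change was -0.08 against 0 over all genes and -0.04 over all named genes. At an unadjusted p under 0.05 the same 2 lay higher and 4 other members lower, and over all named genes 5.34% lay higher and 8.09% lower (3.63% and 3.16% over all genes). Of the 13 genes of the mitochondrial genome 3 were matched, and ATP8 was the one that passed. At an unadjusted p under 0.05, 2 of these 3 lay higher and none lower, and their median was 0.24. The complex IV subunits Cox4i1 and Cox5a, both among the study's candidate longevity genes, differed by 0.03 (SE 0.10, adjusted p = 0.986) and 0.06 (SE 0.13, adjusted p = 0.976).

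Sars, Sdf4, Ccdc47 and Ddx3x were the remaining named genes that rose in AL>CR. Sars, the cytosolic seryl-tRNA synthetase, measured 62.3, 67.7 and 74.8 CPM in AL>CR and 41.6, 35.5 and 42.6 CPM in CR>AL, a 1.72-fold difference without overlap (log2 0.78, SE 0.13, edgeR adjusted p = 0.00263). Sdf4, a calcium-binding protein of the Golgi lumen, was at 56.7, 62.4 and 56 CPM against 33.9, 36.8 and 38.5 CPM, a log2 fold change of 0.68 (SE 0.13, adjusted p = 0.016). For both genes the lowest AL>CR pool lay well above the highest CR>AL pool. Ccdc47, a calcium-binding protein of the endoplasmic reticulum that assists insertion of membrane proteins, was at 134, 127 and 145 CPM against 92.6, 101 and 85.5 CPM (log2 0.54, SE 0.11, adjusted p = 0.0257). Ddx3x, an RNA helicase used in translation initiation, was at 224, 219 and 237 CPM against 169, 159.9 and 161 CPM (log2 0.48, SE 0.10, adjusted p = 0.0339). Sars passed without each of the 6 pools in turn, and Ddx3x passed in none of those 6 fits. Asrgl1, an enzyme that cleaves asparagine and isoaspartyl peptides, was next in order at 59, 53.6 and 58.5 CPM against 42.6, 35 and 35.9 CPM and did not pass (log2 0.60, SE 0.14, adjusted p = 0.0546).

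Among the named genes lower in AL>CR, Rplp1, an acidic protein of the large ribosomal subunit, was at 219, 226 and 274 CPM in AL>CR and 452, 389 and 318 CPM in CR>AL. The groups did not overlap and the log2 fold change was -0.69 (SE 0.12, edgeR adjusted p = 0.00234). A second identifier of the same name, RPLP1, moved the same way without passing (-0.46, SE 0.11, adjusted p = 0.0569), and since such near-identical copies compete for uniquely mapped reads, both values are uncertain. Srrm2, a scaffold protein of the spliceosome and of nuclear speckles, fell to 485, 394 and 431 CPM from 650.4, 582 and 586 CPM in CR>AL (log2 -0.47, SE 0.10, adjusted p = 0.0409). Alb, which encodes the plasma protein albumin made chiefly by liver, was at 8.61, 5.07 and 9.59 CPM (34, 23 and 30 reads) against 14, 25.5 and 14.4 CPM (45, 117 and 56 reads), with a log2 fold change of -1.25 (SE 0.27, adjusted p = 0.0339). Pool 26 of CR>AL was the highest, and Alb did not pass without that pool or without pool 20 of AL>CR. Alb varied widely between pools elsewhere in the series, reaching 275 CPM in a 12m AL+LA pool.

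Slc17a6, the vesicular glutamate transporter that marks thalamic more than cortical projection neurons, fell in AL>CR as well, but its pools overlapped. It was at 30.9, 23.4 and 31.7 CPM in AL>CR and at 30.7, 53.3 and 66.2 CPM in CR>AL, where pools 26 and 27 were high and pool 25 was level with AL>CR (log2 -0.83, SE 0.18, edgeR adjusted p = 0.0482). Of other thalamic markers, none of which passed, Prkcd was at 28.3, 21.2 and 23 CPM against 23.3, 47.2 and 43.9 CPM, high in the same CR>AL pools (log2 -0.67, SE 0.19, adjusted p = 0.186), and Tcf7l2 at 12.7, 7.94 and 11.5 CPM against 9.63, 24.6 and 13.9 CPM (log2 -0.62, SE 0.27, adjusted p = 0.63). The third matched marker, Rora, differed by -0.05 (SE 0.17). The summed level of these 3 of 11 listed markers was 56.4 to 63.8 CPM in AL>CR and 60.3 to 99.0 CPM in CR>AL, and the part of thalamic tissue in the Slc17a6 result was not tested.

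**Figure D3:**
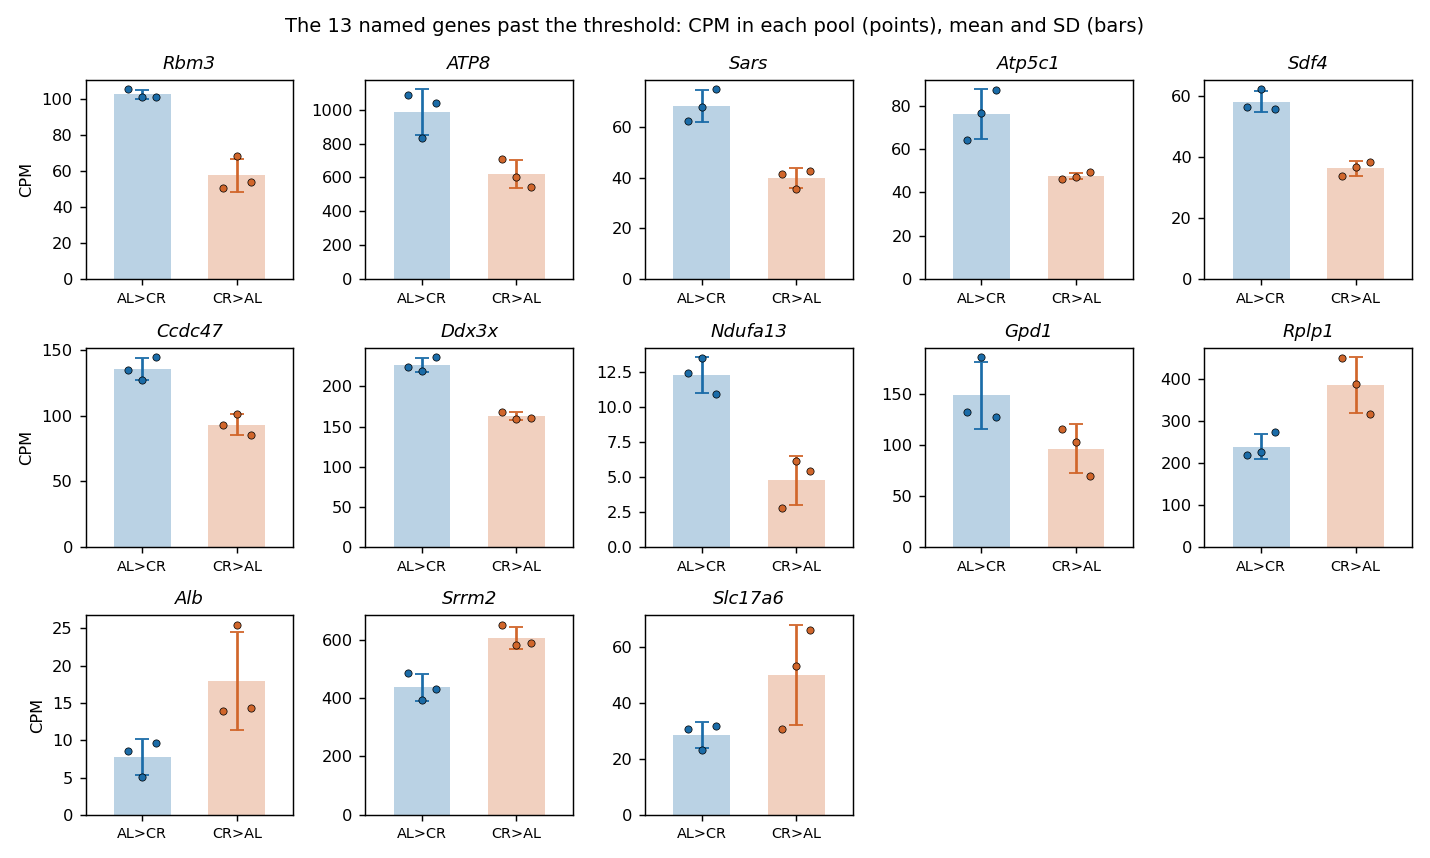
CPM (vertical axes, all starting at 0) of the 13 named genes past the threshold in AL>CR (blue) and CR>AL (orange). Points are the 3 pools of a group, bars their mean and error bars the SD. The groups are apart in 12 panels and overlap in that of Slc17a6.

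Among called genes with separate pools, the largest differences were in genes to which no name could be given. ENSRNOG00000046170 was at 17, 15.2 and 17.3 CPM in AL>CR and at 55.6, 42.7 and 61.1 CPM in CR>AL, a log2 fold change of -1.68 (SE 0.17, edgeR adjusted p = 5.75e-08). ENSRNOG00000049138 was at 38.2, 33.9 and 29.7 CPM against 103, 74.2 and 109.9 CPM, a log2 fold change of -1.48 (SE 0.14, adjusted p = 5.75e-08). Both passed without each pool in turn and under the 9 other settings tried, as no other called gene did. Both were also lower in CR than in AL at 12 months, with log2 fold changes of -1.93 (adjusted p = 9.96e-06) and -1.84 (adjusted p = 3.1e-05), in libraries of other rats. Those 12-month libraries differed in quality between the groups, as given above. Lifelong CR against AL at 28 months gave -0.93 (adjusted p = 0.0604) and -0.77 (adjusted p = 0.116), which did not pass, and the switches with LA gave the opposite sign, 0.32 (adjusted p = 0.941) and 0.44 (adjusted p = 0.846). Among unnamed genes that rose, ENSRNOG00000031766 had the highest level, 1716, 1594 and 1667 CPM against 1243, 1061 and 1109.5 CPM (log2 0.55, SE 0.10, adjusted p = 0.00949), and ENSRNOG00000023917 was at 31.4, 29.8 and 29.7 CPM against 15.5, 13.9 and 18.5 CPM (log2 0.93, SE 0.18, adjusted p = 0.0132). Of the 15 called genes without a name 10 rose and 5 fell, and in 2 of them the pools of the groups overlapped. ENSRNOG00000011672 was at 71.6 CPM in pool 20 of AL>CR with the other 5 at 0.77 CPM or less. ENSRNOG00000004632 was at 52.2 and 85.2 CPM in pools 25 and 27 of CR>AL with the other 4 at 2.02 CPM or less. The latter passed without each pool in turn but not with DESeq2.

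The lower side held few named calls, so genes without overlap that came close are given, none of which passed. Mll2, a histone H3 lysine methyltransferase, was at 65.8, 68.1 and 66.2 CPM against 103, 88.3 and 89.8 CPM (log2 -0.48, SE 0.12, edgeR adjusted p = 0.0842). Kcng4, a modifying subunit of voltage-gated potassium channels, was at 7.59, 8.6 and 5.44 CPM against 11.5, 14.6 and 18.5 CPM (log2 -1.02, SE 0.26, adjusted p = 0.113). Further ones were Wdfy3, an adaptor of selective autophagy, at -0.40 (adjusted p = 0.172), Nat8l, the enzyme that makes N-acetylaspartate, at -0.51 (adjusted p = 0.177), and Enpp6, a choline-specific phosphodiesterase of newly formed oligodendrocytes, at -0.75 (adjusted p = 0.18).

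Gene lists for pathways that restriction is known to act on held no called members beyond those above. The 31 lists named 778 genes, 217 of which were matched to a tested identifier, so a count speaks only for the matched members, and these came from the same selective lists. Of the matched clock genes (8 of 25) none passed, and the list's median was 0.10. Dbp, a clock-controlled transcription factor, came closest, at 83.3, 84.2 and 53.7 CPM in AL>CR and 54, 54.4 and 53.6 CPM in CR>AL (log2 0.46, SE 0.14, edgeR adjusted p = 0.266), with pool 21 of AL>CR level with CR>AL. The clock repressors Bhlhe40 and Bhlhe41, differed by 0.15 (SE 0.11) and 0.21 (SE 0.22). None of 6 matched genes of insulin and nutrient signalling passed (median -0.07), among them Rheb, the activator of mTORC1, at -0.48 (SE 0.14, adjusted p = 0.22), the insulin receptor substrate Irs1 at -0.48 (SE 0.22), and Pdpk1, a kinase upstream of Akt, at 0.14 (SE 0.13). None of 7 matched glucocorticoid response genes passed (median 0.08), with the sulfotransferase Sult1a1 at 0.54 (SE 0.23), the cell cycle inhibitor Cdkn1a at -0.29 (SE 0.25) and the stress-induced actin regulator Fam107a at 0.10 (SE 0.12). None of 9 tested identifiers of neuropeptides and feeding signals passed (median -0.0044), with the granin Scg2 at 0.32 (SE 0.13), the enkephalin precursor Penk at 0.25 (SE 0.14) and neuropeptide Y, Npy, at -0.18 (SE 0.20).

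Among genes of neuronal activity and transmission, Slc17a6 was the one call, where 0.779% of named genes and 0.163% of all genes passed. None of 11 matched immediate early genes passed (median 0.07), with the transcription factors Fosb at -0.56 (SE 0.28), Egr3 at -0.54 (SE 0.30) and Egr2 at 0.35 (SE 0.20). The glutamate list had 9 matched genes of 31, of which Slc17a6 fell and 8 did not pass (median -0.06), and the GABA and glycine list had 8 of 27, none of which passed (median -0.05). The glycine receptor subunit Glrb differed by -0.20 (SE 0.10) and the postsynaptic scaffold Gphn by -0.12 (SE 0.12). Gabra6 gave 1.05 (SE 0.74), which rested on pool 19 and became -2.55 without it. None of 13 matched synaptic vesicle genes passed (median -0.05), but 5 lay lower at an unadjusted p under 0.05, a level at which 8.09% of named genes and 3.16% of all genes lay lower. The SNARE protein Vamp1 was among them (-0.38, SE 0.15). The summed level of the 13 genes was 1749 to 1843 CPM in AL>CR and 1894 to 1976 CPM in CR>AL, without overlap. Among all genes tested singly, 11.9% had pools that did not overlap.

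Immune and stress genes showed no call either. Of 6 matched genes of antigen presentation on MHC class II none passed, with a median of -0.47 in log2 fold change, and 4 lay lower and 1 higher at an unadjusted p under 0.05, where 8.09% of named genes lay lower and 5.34% higher. RT1-Db1, a class II beta chain, was at 25.6, 27.1 and 17.9 CPM against 45, 44.4 and 25.7 CPM (log2 -0.68, SE 0.19, edgeR adjusted p = 0.167), and pool 27 of CR>AL fell within the range of AL>CR. RT1-Da, the alpha chain, was at 39, 32.6 and 22.7 CPM against 53.7, 52.4 and 36.7 CPM (log2 -0.58, SE 0.17, adjusted p = 0.222), while the lysosomal protease Ctss was higher, at 249.5, 249 and 239 CPM against 204, 194 and 207 CPM (0.29, SE 0.10, adjusted p = 0.432). None of 6 interferon and complement genes passed, with the central complement protein C3 at -0.28 (SE 0.14) and the interferon-induced GTPase Mx2 at 0.23 (SE 0.23). None of 12 identifiers of heat shock and protein folding passed (median -0.05), with the chaperones Hsph1 at -0.25 (SE 0.10) and Cryab at -0.25 (SE 0.12) and the endoplasmic reticulum stress factor DDIT3 at -0.17 (SE 0.19). None of 15 antioxidant and detoxification genes passed (median -0.10), with the heme oxygenase Hmox2 at 0.39 (SE 0.14) and the glutathione transferases Gstp1 at -0.29 (SE 0.14) and Gsta1 at 0.22 (SE 0.12). In lipid metabolism none of 9 sterol genes and none of 3 genes of fatty acid and ketone use passed, with the sterol enzymes Hmgcs1 at 0.15 (SE 0.10), Nsdhl at 0.19 (SE 0.16) and Msmo1 at 0.09 (SE 0.10), and with the desaturase Fads1 at -0.13 (SE 0.10) and the monocarboxylate transporter Slc16a7 at -0.0027 (SE 0.14). Of 18 matched chromatin modifiers none passed (median -0.05), and beside Mll2 the histone methyltransferase Dot1l at -1.05 (SE 0.31, adjusted p = 0.256) and the remodeller Chd7 at -0.43 (SE 0.20, adjusted p = 0.703) came closest.

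Markers of cell types were compared in the same way, and no matched marker passed. The summed level of 4 of 12 listed astrocyte genes was 1235 to 1309 CPM in AL>CR and 1476 to 1576 CPM in CR>AL, without overlap. Gfap and Aqp4 made up most of that sum, and the list's median log2 fold change was -0.11. Of all genes tested singly, 11.9% also had pools that did not overlap. Gfap, the intermediate filament of reactive astrocytes, was at 535, 522 and 469 CPM against 665, 607 and 647 CPM (log2 -0.33, SE 0.10, edgeR adjusted p = 0.287), and the water channel Aqp4 at 684, 605 and 715 CPM against 751, 772 and 822 CPM (log2 -0.22, SE 0.10, adjusted p = 0.671). The astrocytic connexin Gjb6 overlapped between groups (0.08, SE 0.13). The striatal marker Pde10a was at 44.8, 52.2 and 52.4 CPM against 39.4, 26.8 and 40.8 CPM (0.50, SE 0.15, adjusted p = 0.288). For neurons the values were Neurod6 at 0.15 (SE 0.15), Nefm at -0.15 (SE 0.15) and Syt1 at 0.08 (SE 0.11), and for cortical layers Mef2c at 0.29 (SE 0.12), Lamp5 at -0.09 (SE 0.11), Calb1 at 0.04 (SE 0.12), Etv1 at 0.22 (SE 0.11), Fezf2 at -0.20 (SE 0.25) and Pcp4 at 0.08 (SE 0.11). For the oligodendrocyte lineage they were Mog at -0.16 (SE 0.12), Opalin at -0.13 (SE 0.13), Bcas1 at -0.10 (SE 0.11) and Tnr at -0.09 (SE 0.11), and for microglia Tmem119 at -0.20 (SE 0.17), Tyrobp at 0.13 (SE 0.25) and Itgam at -0.12 (SE 0.28). For blood, meninges and choroid plexus they were Hba2 at 0.12 (SE 0.13), Hba-a2 at 0.10 (SE 0.12), Dcn at 0.45 (SE 0.26), Ptgds at 0.08 (SE 0.12) and Aqp1 at 0.09 (SE 0.30), and the 2 haemoglobin genes are near-identical copies. For cerebellum and hippocampus they were Car8 at -0.40 (SE 0.20), Cbln1 at 0.41 (SE 0.29), Fibcd1 at -0.47 (SE 0.42) and Mpped1 at -0.02 (SE 0.11). No endothelial or pericyte marker of the 12 listed could be matched.

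**Figure D4:**
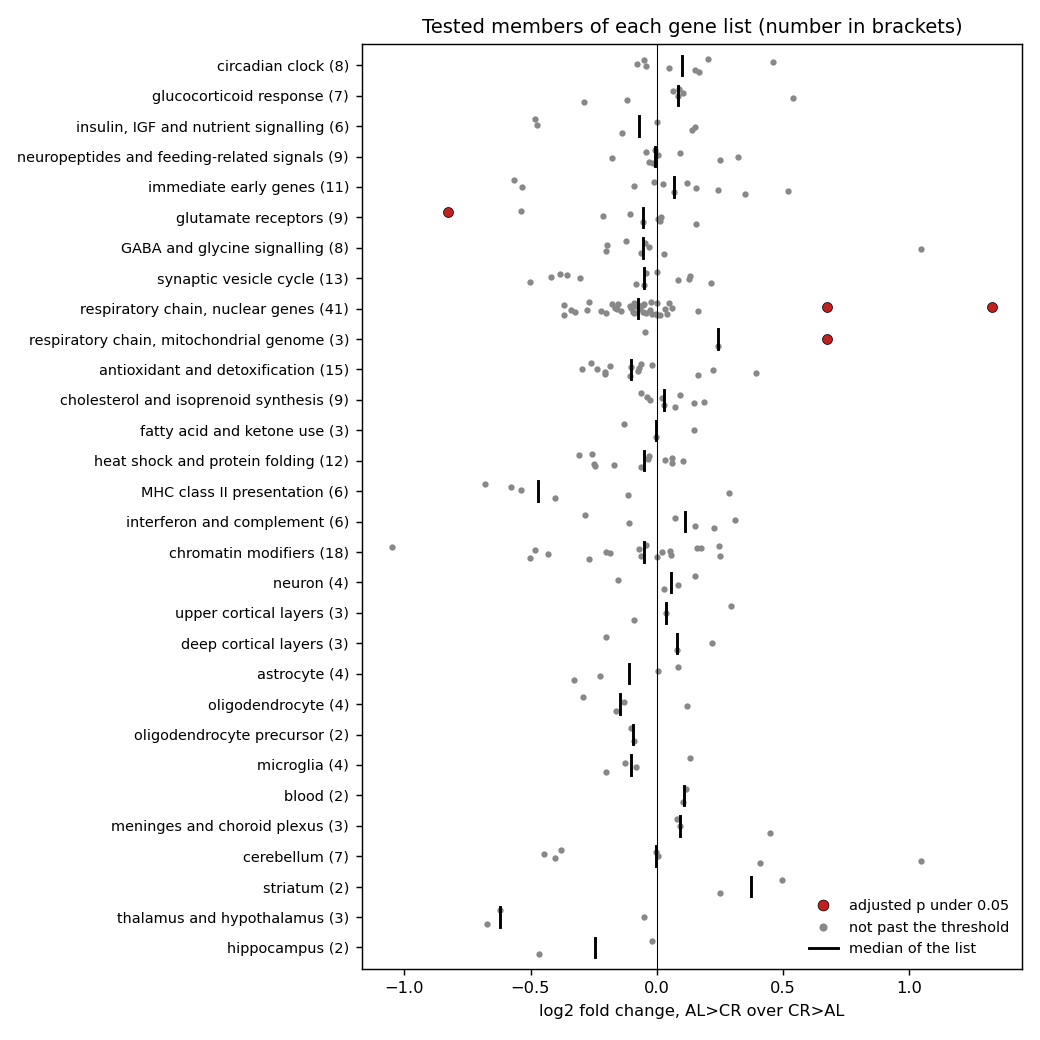
Log2 fold change of AL>CR over CR>AL (horizontal axis) for every tested member of the gene lists (rows, with the number of tested identifiers). Red points passed an adjusted p under 0.05 and black bars are list medians. In all 4 points are red, Slc17a6 on the left and Atp5c1, Ndufa13 and ATP8 on the right, and most medians lie within 0.15 of 0.

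Of the study's candidate longevity genes, a longer list, 10 of those named in its text were looked up, and none of these passed. The study chose its list as genes that differed specifically in long-lived groups, with AL as the reference, which is another comparison than AL>CR against CR>AL. Npm1, a nucleolar chaperone of ribosome assembly, came closest, at 38.7, 25.8 and 47.7 CPM in AL>CR and 24.5, 23.3 and 21.3 CPM in CR>AL without overlap (log2 0.69, SE 0.18, edgeR adjusted p = 0.132). The GABA-synthesising enzyme Gad1, the kainate receptor Grik2 and the neuronal regeneration protein Nrep differed by 0.03 (SE 0.10), 0.16 (SE 0.11) and 0.21 (SE 0.23). Smn1, which assembles spliceosomal particles, the PI3-kinase subunit Pik3r1 and the recombination factor Swi5 differed by -0.17 (SE 0.21), -9.5e-05 (SE 0.12) and -0.10 (SE 0.14).

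The lifelong groups, 28m AL and 28m CR, complete a design of early by late diet, in which the late effect is CR after 12 months against AL after 12 months and the early effect CR before 12 months against AL before it. In one edgeR fit of these 12 libraries 237 genes (1.38%) differed by late diet, 166 higher with late CR (0.963%) and 71 lower (0.412%), and 413 (2.4%) by early diet, 307 higher with early CR (1.78%) and 106 lower (0.615%), while 333 (1.93%) passed for early and late diet together, that is, for the switched against the unswitched groups. These effects share the 6 pools above, and the difference of AL>CR and CR>AL is the late minus the early effect. Rn28s took 0.337% to 2.29% of gene reads in the groups with late AL and 2.59% to 3.13% in those with late CR. Late diet and residual ribosomal RNA therefore cannot be told apart in these libraries. In 28m AL 27.5% to 33.2% of reads were not aligned, against 38.1% to 41.0% in the other groups of the fit. Gabra6 stood at 592 and 531 CPM in the 28m AL pools 7 and 9 against 0.29 CPM in pool 8. Without pools 7 and 9 lifelong AL rests on pool 8 alone, so for single genes only effect sizes are given for that fit. The values of genes described above are given side by side. Cirbp was looked up after its values were seen, and the others were chosen on the late minus early difference. Their p-values here are therefore no independent evidence. For Sars they were 0.76 for the late diet (SE 0.11, adjusted p = 0.0002) and -0.01 for the early diet (SE 0.11, adjusted p = 0.974). For Rbm3 they were 0.41 for the late diet (SE 0.10, adjusted p = 0.036) and -0.41 for the early diet (SE 0.10, adjusted p = 0.0269), nearly equal and opposite. For Ddx3x they were 0.02 for the late diet (SE 0.09, adjusted p = 0.944) and -0.45 for the early diet (SE 0.09, adjusted p = 0.00387), and for Alb 0.27 for the late diet (SE 0.20, adjusted p = 0.63) and 1.52 for the early diet (SE 0.20, adjusted p = 7.64e-05). For Ndufa13 they were 0.92 for the late diet (SE 0.19, adjusted p = 0.0097) and -0.41 for the early diet (SE 0.19, adjusted p = 0.293), and for Atp5c1 0.21 for the late diet (SE 0.10, adjusted p = 0.362) and -0.46 for the early diet (SE 0.10, adjusted p = 0.0121). Cirbp had 0.61 for the late diet (SE 0.11, adjusted p = 0.00322) and -0.03 for the early diet (SE 0.11, adjusted p = 0.927). Without the 28m AL pools 7 and 9, Rbm3 had 0.53 for the late and -0.30 for the early diet. Ndufa13 then had 0.93 for the late diet and Atp5c1 -0.34 for the early diet. Sars and Cirbp had 0.60 and 0.74 for the late diet, and Ddx3x and Alb -0.34 and 1.47 for the early diet. That fit cannot decide whether the calls hold without those pools, because pool 8 alone then stands for lifelong AL. Set out in the 4 groups, Sars was at 41.4 ± 8.86 CPM in AL, 68.9 ± 4.96 in CR, 68.3 ± 6.31 in AL>CR and 39.9 ± 3.87 in CR>AL (SD, n = 3 pools each), so both groups eating ad libitum at the end were low. Ddx3x was at 301 ± 54.9, 224 ± 15.5, 227 ± 9.09 and 163 ± 4.83 CPM in the same order.

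The 25 called genes without overlap were next read in the other groups of 28 months. Relative to CR>AL, the 18 that were higher in AL>CR had a median log2 difference of mean CPM of 0.67 in AL>CR, 0.67 in lifelong AL, 0.63 in lifelong CR, 0.56 in AL+LA, 0.37 in AL+LA>CR, 0.63 in CR>AL+LA and 0.63 in CR>CR+LA. Of these 18, 17 had their lowest mean of the 8 groups in CR>AL. The CR>AL pools were among those that chose the genes, so their low place is a description. The 7 that were lower in AL>CR had medians of -1.21 in AL>CR, -0.60 in lifelong AL, -0.50 in lifelong CR and -0.35 to -0.67 in the 4 groups with LA.

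The same switches were also made with LA in the AL phase, AL+LA>CR and CR>AL+LA, in 6 libraries that share none with the comparison above. In that pair 6 genes passed by edgeR (0.0348%), 2 higher (0.0116%) and 4 lower (0.0232%) in AL+LA>CR. At an unadjusted p under 0.05 there were 948. The count was 24 without pool 24 of AL+LA>CR, 3 without pool 23, and 3, 2 and 0 without pools 28, 29 and 30 of CR>AL+LA. None of the 28 genes was among the 6. Of the 28 genes, 6 had the same sign with LA and 22 the opposite, and over all genes tested 46.1% had the same sign. At an unadjusted p under 0.05 there, 3 had the same sign and 13 the opposite. Rbm3 and Gpd1 were the named genes of the same sign, at 0.50 (SE 0.16, unadjusted p = 0.00468, adjusted p = 0.719 by edgeR) and 0.47 (SE 0.17, unadjusted p = 0.0122, adjusted p = 0.846 by edgeR). Rbm3 was at 109, 104 and 86.1 CPM in AL+LA>CR and 91.1, 51.3 and 69.9 CPM in CR>AL+LA, where one pool overlapped. The Rn28s share was 0.439%, 1.78% and 3.37% of gene reads in AL+LA>CR and 3.04% to 3.16% in CR>AL+LA. It was thus lower in pools 22 and 23 of AL+LA>CR than in CR>AL+LA, while AL>CR lay above CR>AL. The part of residual ribosomal RNA in the opposite signs was not tested.

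The difference between the contrasts was tested in one edgeR fit of the 12 libraries, and 26 genes passed (0.151%), 20 with a higher contrast without LA (0.116%) and 6 with a lower one (0.0348%). The count was 93 without pool 24 of AL+LA>CR and 10 without pool 21 of AL>CR or pool 27 of CR>AL. They included 13 of the 28 genes, which had been chosen on 6 of the same 12 libraries. Sdf4 had log2 fold changes of 0.68 without and -0.65 with LA, a difference of 1.33 (SE 0.19, adjusted p = 0.000589). In the pools with LA it was at 35.5, 40.8 and 48.7 CPM in AL+LA>CR and 64.2, 62.8 and 67.5 CPM in CR>AL+LA, apart in the other direction. Sars had 0.78 without and -0.55 with LA, a difference of 1.32 (SE 0.21, adjusted p = 0.00196), and Asrgl1 0.60 without and -0.62 with LA, a difference of 1.22 (SE 0.20, adjusted p = 0.00411). Alb had -1.25 without and 1.06 with LA, a difference of -2.33 (SE 0.47, adjusted p = 0.0318), and Rplp1 -0.69 without and 0.28 with LA, a difference of -0.97 (SE 0.18, adjusted p = 0.0147).

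**Figure D5:**
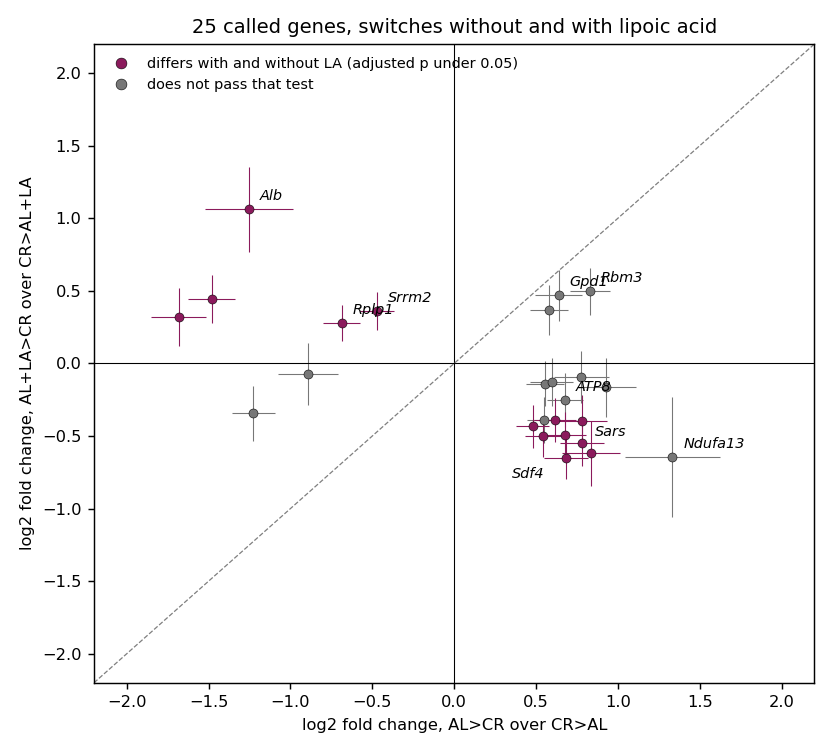
Log2 fold change of AL>CR over CR>AL (horizontal axis) against that of AL+LA>CR over CR>AL+LA (vertical axis) for the 25 called genes whose pools did not overlap, with standard errors as bars and the dashed line marking equal values. Purple points passed the test of the difference between the contrasts, and most points lie in the quadrants of opposite sign, with Rbm3 and Gpd1 among the few in the upper right.

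Ribosomal RNA left after depletion was compared with these genes within groups too, a check made after the values were seen. In AL+LA>CR, Rn28s took 0.439%, 1.78% and 3.37% of gene reads in pools 22, 23 and 24, and 12 of the 18 genes that were higher in AL>CR had their lowest CPM in pool 22, where 33.3% of all genes tested had theirs. In AL+LA, Rn28s took 0.927%, 3.00% and 3.25% in pools 34, 35 and 36, and 16 of the 18 genes had their lowest CPM in pool 34, against 33.6% of all genes. Sdf4 was at 38.8, 61.9 and 63.9 CPM in those pools, and Ndufa13 at 4.88, 14.8 and 12.8 CPM. The other groups differed in this. The pool with the lowest Rn28s share was the lowest for more of the 18 genes than either other pool in 8 of the 13 groups. Among those 8 the share hardly differed between the pools of 28m CR (2.94% to 3.13%) and of CR>AL+LA (3.04% to 3.16%). The pool with the lowest share was the lowest for 6 of the 18 genes in CR>AL (pool 26, against 33.3% of all genes) and 4 in AL>CR (pool 19, 31.7%). It was the lowest for 4 in 12m AL (pool 6, 25.8%) and 2 in 28m AL (pool 9, 29.7%). In lifelong AL, Rn28s took 0.337% to 0.674%, and the means of all 18 genes lay above those of CR>AL. With the Rn28s share as a covariate 34 genes passed, 2 higher and 32 lower, 7 of them among the 28 (1 of these, ENSRNOG00000011672, in the opposite direction). The log2 fold changes were then 0.58 for Sars, 0.63 for Sdf4 and 1.15 for Rbm3, of which Rbm3 passed. ATP8 was the other named gene of the 28 that passed. Because the share did not overlap between AL>CR and CR>AL, diet history and residual ribosomal RNA cannot be told apart in these 6 libraries.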

How the data were processed

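Cerebral cortex RNA of 2 rats per pool was depleted of ribosomal RNA and sequenced. The authors aligned the reads with Bowtie to Rnor_5.0, excluding multiple mapping, and counted them per Ensembl gene with HTSeq (versions not given in the sources used here, nor whether strand was used), and the deposited files hold these raw counts. The 5 non-gene lines of each file were left out of library sizes and tests. Tests covered the 17230 of 26123 genes that reached 1 CPM in 3 or more libraries of the series. CPM values used TMM factors over all 39 libraries. Comparisons used edgeR 4.0.16 in R 4.3.3 (quasi-likelihood test, two-sided, TMM, Benjamini-Hochberg over all genes tested, threshold 0.05), with positive values higher in AL>CR. DESeq2 1.42.0, edgeR's exact test, RLE size factors, other filters, wider fits and fits without each pool were alternatives. The procedure was tested on simulated data.

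The members and lists were chosen with earlier results of these data known. Names of genes came from the study's supplementary lists and covered 1668 genes. Named in the text are, in each direction, up to 15 called genes whose pools did not overlap, filled to 10 with the smallest unadjusted p, and for each list its called members or otherwise the 3 members with the smallest p, besides 10 candidate longevity genes. Cirbp, Rn28s, genes without a name and list members beyond these were chosen after their values were seen. Pools of a group differed by more than sampling noise (chi-square per degree of freedom 3.74 to 8.06), so all were counted as separate samples. Promoter windows came from RefSeq, GRCr8, and 11 of 14 genes looked up were found. A few genes that the rule names are not reported here.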

Additional observations from a re-analysis of the deposited data

Results flagged for a closer look

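The log2 fold change between the opposite switches differed with and without LA in 26 genes, by edgeR's test of the difference itself with Benjamini-Hochberg adjustment over all genes tested. Positive differences mean a higher value of AL>CR over CR>AL without LA than with it. The genes listed here were chosen on the contrast without LA, which is part of the difference tested, in the same libraries. Their p-values are therefore no independent evidence. The Rn28s share also ran in different directions in the pairs with and without LA, as given above, and its part was not tested. Among the genes described above, the difference was positive for Sdf4 at 1.33 (adjusted p = 0.000589), Sars at 1.32 (adjusted p = 0.00196), Asrgl1 at 1.22 (adjusted p = 0.00411), Ccdc47 at 1.04 (adjusted p = 0.0119), Atp5c1 at 1.16 (adjusted p = 0.0179) and Ddx3x at 0.90 (adjusted p = 0.0394). It was negative for Rplp1 at -0.97 (adjusted p = 0.0147), Alb at -2.33 (adjusted p = 0.0318) and Srrm2 at -0.84 (adjusted p = 0.0376). Among called genes without a name it passed for ENSRNOG00000049138 at -1.93 (adjusted p = 3.72e-05), ENSRNOG00000046170 at -2.02 (adjusted p = 0.000119), ENSRNOG00000008764 at 1.002 (adjusted p = 0.0229), ENSRNOG00000000596 at 1.18 (adjusted p = 0.0318) and ENSRNOG00000003936 at 1.45 (adjusted p = 0.0394).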

How the results depend on the processing

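Of the 28 genes, 7 passed without each pool in turn, and 2 of these under every setting tried. The count of 28 became 50 with edgeR's exact test, 34 with DESeq2, 99 with no filter on low genes, 5 with 4 diet groups and 2 with all 13 groups in one fit, 34 with the Rn28s share as a covariate (chosen after seeing the data), and 13 to 43 without each pool in turn. With no filter the other counts were 46 for the switches with LA, 110 for their difference, 564 for late diet, 803 for early diet and 681 for both together. DESeq2 gave 62 for the difference. Without each pool in turn they ranged from 0 to 24, 10 to 93, 129 to 480, 230 to 846 and 189 to 650. Without the 28m AL pools 7 and 9 the last 3 were 132, 185 and 180. Those 3 counts rest on pool 8 alone for lifelong AL, so they do not show whether a call holds. The difference in the share of reads not aligned ranged from -0.603 to 0.618 percentage points without each pool in turn. Of 1632 values of named genes, 38 changed sign. ENSRNOG00000011672, which rested on 1 pool, changed from 6.09 to -7.92 with the Rn28s covariate. Without each pool in turn, the log2 fold change changed sign for these genes, none of which had passed: Aqp1 (-0.115 to 0.396), Bcas1 (-0.188 to 0.021), Calb1 (-0.0297 to 0.138), Cox4i1 (-0.0324 to 0.0741), Cox5a (-0.00825 to 0.212), DDIT3 (-0.256 to 0.00458), Fam107a (-0.0582 to 0.251), Gabra6 (-2.55 to 1.61), Gad1 (-0.0176 to 0.0638), Gjb6 (-0.0575 to 0.213), Hba-a2 (-0.014 to 0.31), Hba2 (-0.0141 to 0.226), Itgam (-0.302 to 0.0378), Lamp5 (-0.163 to 0.0173), Mpped1 (-0.0708 to 0.0616), Mx2 (-0.127 to 0.454), Nefm (-0.301 to 0.106), Opalin (-0.311 to 0.0302), Pcp4 (-0.00218 to 0.149), Pik3r1 (-0.0668 to 0.075), Ptgds (-0.0900 to 0.25), Rora (-0.118 to 0.0241), Slc16a7 (-0.129 to 0.0764), Swi5 (-0.184 to 0.00599), Syt1 (-0.0415 to 0.181), Tyrobp (-0.0776 to 0.534). The cause of these changes was not tested. No paired analysis was possible because pool numbers are not shared between groups. Depth limits the genes with few reads, such as Ndufa13 with 9 to 61 reads a pool.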
